A study of Mus musculus with 6 samples.

Results

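The G1 cyclins, the kinases that they activate and the Myc genes were followed in uterine RNA from mice with stabilized β-catenin. The 10 genes are Ccnd1, Ccnd2, Ccnd3, Ccne1, Ccne2, Cdk4, Cdk6, Cdk2, Myc and Mycn. They were chosen by name, as every probe set whose platform annotation gives exactly 1 symbol equal to a member. This gave 10 of the 18193 genes and 28 of the 45037 probe sets on the array. Each gene was read by its brightest probe set over the 6 arrays, and the others are given beside it.

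Affymetrix arrays, on which a set of short probes reads each transcript, were hybridized with uterine RNA from 3 control and 3 mutant samples of female mice at 4 weeks of age. The study asked which genes respond to activated β-catenin in a uterus that develops adenomyosis. Mutant mice (Pgr cre/+ Ctnnb1f(ex3)/+) carry 1 Pgr allele that encodes Cre and 1 Ctnnb1 allele whose exon 3 is flanked by recombination sites. Where Pgr is expressed, Cre removes that exon and leaves a β-catenin that is not degraded. Control mice are wild type in the sample labels, whereas the paper gives Pgr cre/+ and Ctnnb1 f(ex3)/+ animals. By that account some controls also carry Cre in 1 Pgr allele. Which genotype each control array holds was not stated. The methods give an age of 1 month and state that uterine RNA was pooled from 3 mice per genotype. Whether each array holds another animal is thus unclear, and all p-values rest on the spread between arrays alone, which may be technical.

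Cyclins of the D type bind Cdk4 and Cdk6 in G1, and cyclins of the E type bind Cdk2 at the entry into S phase. Both kinds of complex phosphorylate the retinoblastoma protein, which then releases E2F transcription factors that turn on genes of DNA replication. Myc and Mycn are transcription factors of cell growth, and Ccnd1 and Myc are textbook targets of β-catenin with TCF/LEF factors in colon cancer cells. In the uterus, estrogen and progesterone set when epithelium and stroma divide.

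In the mutant uterus, Ccnd1 rose and Myc and the brightest Mycn probe set fell, while the other 7 genes did not pass the test. The remaining Mycn probe sets did not fall with it (log2 fold changes of -0.02 and 0.19). Myc kept its call in 2 of the 6 fits that each left out an array. Of the 10 genes, 1 was higher and 2 were lower at an adjusted p under 0.05 from limma, with Benjamini-Hochberg adjustment over all genes. Of all 18193 genes, 5.61% were called higher and 6.36% lower. Every mutant array lay above every control array for 4 of the 10 genes (Ccnd1, Ccne1, Ccne2 and Cdk2), against 14.9% of all genes. Every mutant array lay below every control array for 3 genes (Cdk6, Myc and Mycn), against 17.4% of all genes. The median log2 fold change was 0.17 over the 10 genes and -0.01 over all genes. With 10 genes these counts are small, and the results below are for single genes.

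**Figure D1:**
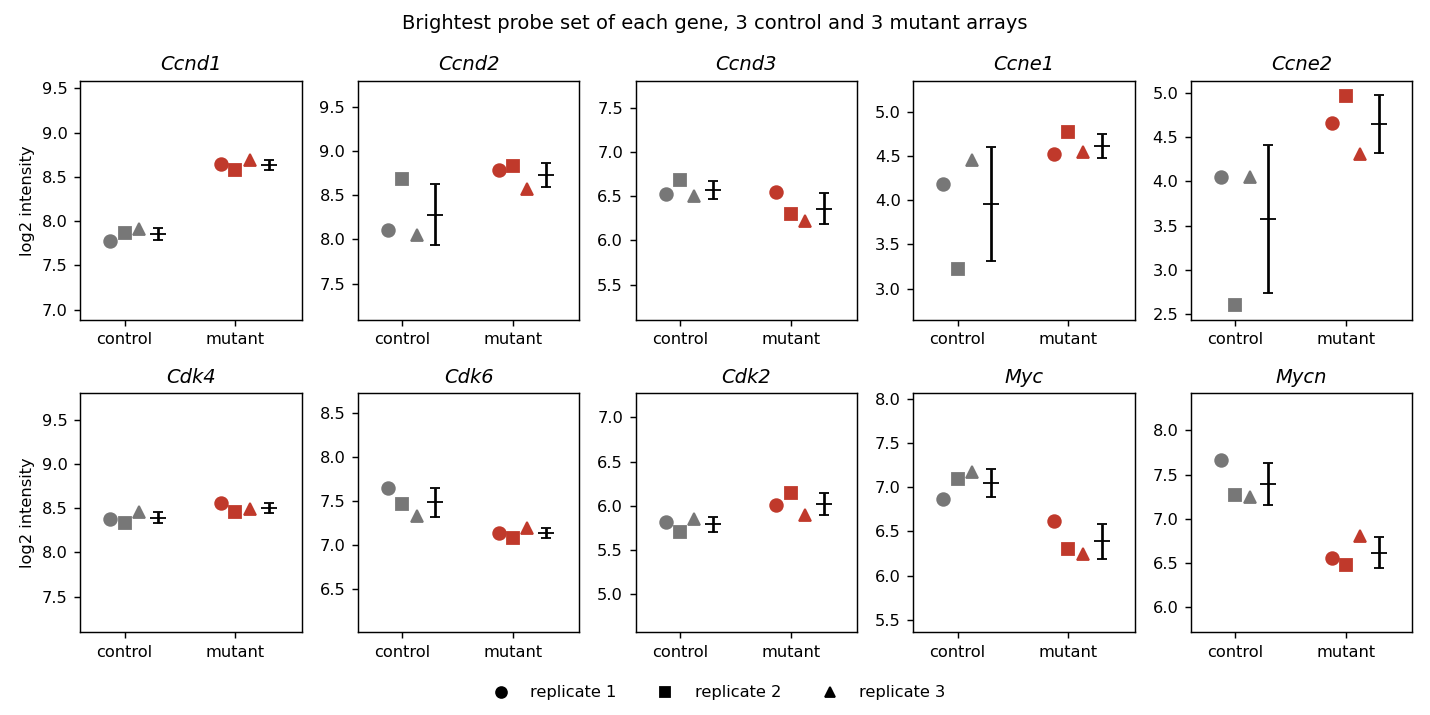
Log2 intensity (y axis) of the brightest probe set of each of the 10 genes on 3 control arrays (grey) and 3 mutant arrays (red), where the bar is the mean ± SD of a group; each panel spans the same log2 range at its own level. The groups are farthest apart relative to their spread for Ccnd1, and control replicate 2 lies far below the other controls for Ccne1 and Ccne2.

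The deposited values are intensities on a linear scale, and all levels below are log2 intensities. A level can be compared between arrays for 1 probe set, but not between probe sets. No detection calls were used, and changes of probe sets below an intensity of 16, which were 62.3 to 62.6% of those on each array, may be understated. In whole tissue, fewer cells of a type and less RNA per cell cannot be told apart.

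Ccnd1 encodes cyclin D1, the D-type cyclin that many growth signals induce. Its log2 intensity was 7.78, 7.87 and 7.91 in control replicates 1 to 3 and 8.64, 8.58 and 8.69 in mutant replicates 1 to 3. The lowest mutant array stood 0.67 above the highest control array. Cyclin D1 transcript was thus 1.72-fold higher in the mutant, or 0.78 on the log2 scale (standard error 0.08, limma adjusted p = 0.00142). This change ranked at the 97.1st percentile of all genes, and its pooled SD at the 9.5th percentile, so the replicates were close together. The call held in all 17 alternative analyses, with log2 fold changes of 0.75 to 1.00.

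Both further probe sets of Ccnd1 were also higher. The first read 7.65, 7.88 and 7.80 in the controls and 8.51, 8.81 and 8.59 in the mutants, a log2 fold change of 0.86 (standard error 0.11). The dimmest read 4.97, 5.22 and 5.73 in the controls and 6.43, 7.05 and 6.55 in the mutants, a log2 fold change of 1.37 (standard error 0.21). In all 3 probe sets every mutant array lay above every control array. Probe sets of a gene read the same RNA and are not separate evidence.

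Ccnd2 encodes cyclin D2, known from the growth of ovarian granulosa cells. It read 8.11, 8.68 and 8.05 in control replicates 1 to 3 and 8.78, 8.83 and 8.57 in mutant replicates 1 to 3. Control replicate 2 lay within the mutant range, far above the other controls. The log2 fold change was 0.45 (95% interval 0.05 to 0.85, limma adjusted p = 0.144), and the test was not passed. All 7 Ccnd2 probe sets had a log2 fold change above 0, from 0.34 to 0.47, and control replicate 2 was the highest control in 7 of them. Without that array the log2 fold change was 0.65 and passed (limma adjusted p = 0.0199). No other left-out array gave a call for Ccnd2.

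Ccnd3 encodes cyclin D3, known from developing lymphocytes. It read 6.52, 6.68 and 6.50 in the controls and 6.55, 6.30 and 6.22 in the mutants. Mutant replicate 1 lay among the controls, and the groups overlapped. The log2 fold change was -0.21 (95% interval -0.46 to 0.05, limma adjusted p = 0.284). Its other 2 probe sets were dim, below an intensity of 16, at -0.19 and 0.02.

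The 3 D-type cyclins were also set against each other on each array, since a shift shared by an array drops out of such a difference. Ccnd1 minus Ccnd3 was 1.26, 1.19 and 1.41 on the controls and 2.09, 2.28 and 2.47 on the mutants, a rise of 0.99 on the log2 scale with no overlap. Ccnd2 minus Ccnd3 differed by 0.66 between the groups, also with no overlap. Each had an exact two-sided permutation p of 0.1, the smallest that 3 against 3 arrays allow, and 0.2 after adjustment over the 6 pairs tested. The exact two-sided permutation test for Ccnd1 minus Ccnd2 gave 0.34 with p = 0.2 (adjusted p = 0.24), so a larger change of Ccnd1 than of Ccnd2 was not shown.

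**Figure D2:**
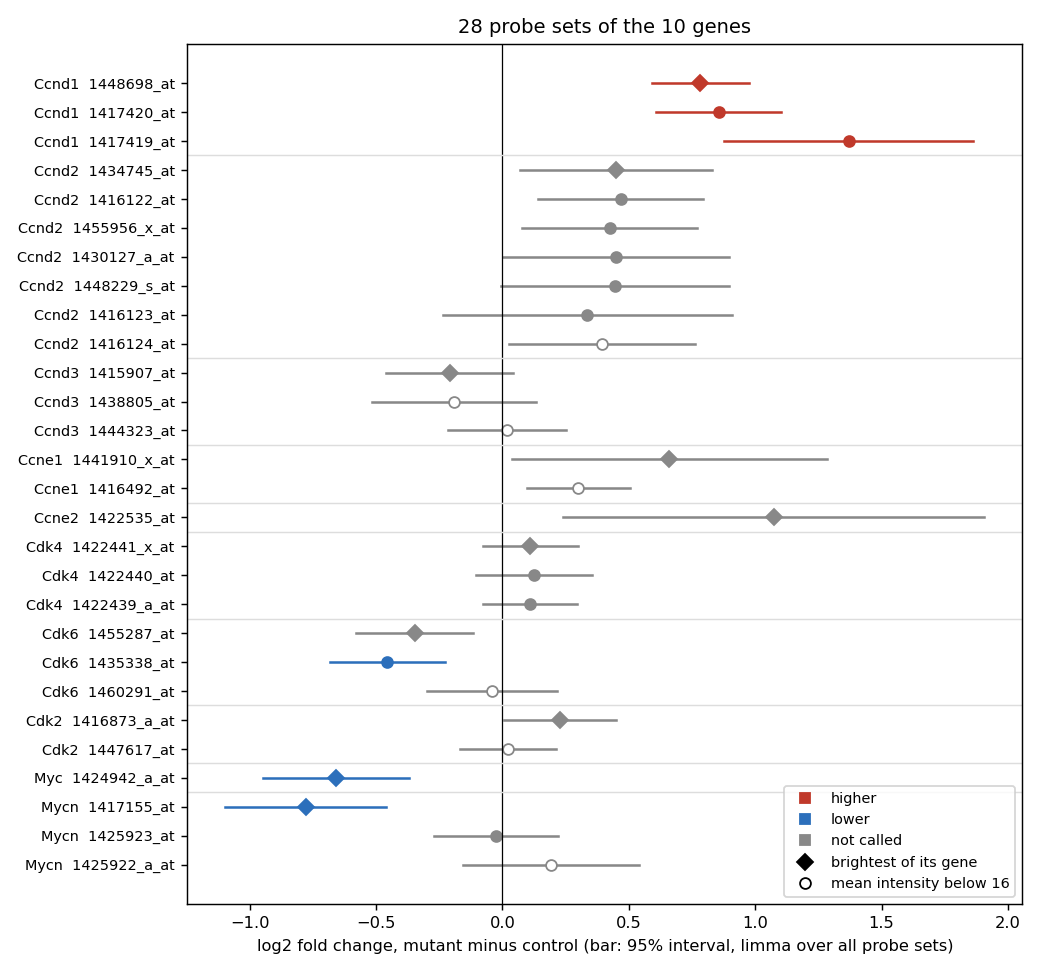
Log2 fold change, mutant minus control (x axis), of all 28 probe sets of the 10 genes (rows), with the 95% interval from limma fitted and adjusted over all 45037 probe sets; colours give the call, diamonds the brightest probe set of a gene and open symbols a mean intensity below 16. All 3 Ccnd1 probe sets are called higher, the 7 of Ccnd2 lie close together between 0.34 and 0.47 without a call, and the 3 of Mycn differ.

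When all probe sets of the array were tested together, 3 of the 28 were called higher and 3 lower, and 22 were not called. The calls were 3.49% higher and 3.41% lower over all 45037 probe sets. The 3 higher probe sets all read Ccnd1. The 3 lower ones read Cdk6, Myc and Mycn.

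Cdk4 and Cdk6 encode the kinases that D-type cyclins activate. Cdk4 read 8.38, 8.34 and 8.46 in the controls and 8.56, 8.46 and 8.49 in the mutants. The groups overlapped within a narrow range, and the log2 fold change was 0.11 (95% interval -0.07 to 0.29, limma adjusted p = 0.436). The 3 Cdk4 probe sets had log2 fold changes of 0.11 to 0.12.

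Cdk4 is a textbook target of Myc, and its promoter is shown because the letters of the Myc site recur in it. The RefSeq promoter window runs from 250 bases before to 50 bases after the annotated start. That of Cdk4 lies at chr10:127063285-127063584 (GRCm38.p6, plus strand), printed 5′ to 3′ with each E-box (CACGTG, the same on both strands) in capitals.
Cdk4: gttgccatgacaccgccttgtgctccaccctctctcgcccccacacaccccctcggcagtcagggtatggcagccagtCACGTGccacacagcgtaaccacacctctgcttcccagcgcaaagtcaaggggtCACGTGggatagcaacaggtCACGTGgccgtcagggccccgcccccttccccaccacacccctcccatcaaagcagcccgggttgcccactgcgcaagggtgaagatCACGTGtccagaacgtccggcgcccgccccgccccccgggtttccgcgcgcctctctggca
The 4 matches begin at positions -172, -118, -98 and -11 relative to the start. Of the 32851 promoter windows in the table, 7.15% hold this E-box at least 1 time and 0.024% at least 4 times. This window was picked for its matches out of 7 windows of the members, so these shares do not measure how unusual it is. A match describes the letters and is no measure of binding. On the same arrays Myc and the brightest Mycn probe set fell and Cdk4 was not called. The other Mycn probe sets did not fall with it, and Mycl of the same family was called higher. Whether Myc proteins act on Cdk4 here was not tested.

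Cdk6 read 7.65, 7.47 and 7.33 in the controls and 7.14, 7.08 and 7.19 in the mutants. Every mutant array lay below every control array, by at least 0.14. The log2 fold change was -0.35 (95% interval -0.58 to -0.11), which missed the threshold (limma adjusted p = 0.0668). It passed with an intensity trend in the variance model (adjusted p = 0.0489) and with array weights (log2 fold change -0.42, adjusted p = 0.0281). The second Cdk6 probe set read 7.05, 7.02 and 6.76 in the controls and 6.49, 6.49 and 6.48 in the mutants. It was called lower over all probe sets, at -0.46 (limma adjusted p = 0.0302). The dimmest Cdk6 probe set was at -0.04.

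The kinase pair was set apart on each array in the same way as the cyclins. Cdk4 minus Cdk6 was 0.73, 0.87 and 1.13 on the controls and between 1.297 and 1.42 on the mutants. The groups did not overlap, and the difference of 0.46 had an exact two-sided permutation p of 0.1 (adjusted p = 0.2).

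Cyclins E1 and E2, the products of Ccne1 and Ccne2, activate Cdk2 at the start of DNA synthesis, and their genes are known E2F targets. Ccne1 read 4.18, 3.22 and 4.45 in control replicates 1 to 3 and 4.53, 4.77 and 4.54 in mutant replicates 1 to 3. Ccne2 read 4.05, 2.61 and 4.05 in the controls and 4.66, 4.96 and 4.31 in the mutants. For both genes the mutants lay above all controls, by only 0.08 and 0.25 at the nearest arrays, and control replicate 2 lay far below everything else.

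The log2 fold change was 0.66 for Ccne1 (95% interval -0.003 to 1.32, limma adjusted p = 0.191) and 1.07 for Ccne2 (95% interval 0.18 to 1.96, limma adjusted p = 0.12). Neither passed, and their pooled SDs stood at the 98.2nd and 99.0th percentile of all genes. Without control replicate 2 the log2 fold changes were 0.30 (adjusted p = 0.229) and 0.59 (adjusted p = 0.109), both from limma. With intensities floored at 16 before log2, they were 0.40 and 0.61, with no call. Ccne2 did pass the paper's fold threshold of 1.5 with an unadjusted p under 0.05 from limma. With Student's t-test, which the paper's methods name, Ccne2 did not pass, even without adjustment. The other Ccne1 probe set, which was dim, read 3.84, 3.74 and 3.93 in the controls and 4.18, 4.17 and 4.06 in the mutants, with no call. Within arrays, Ccne1 minus Ccne2 differed by -0.41 between the groups (exact two-sided permutation p = 0.2, adjusted p = 0.24).

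Cdk2, the kinase of both E-type cyclins, read 5.82, 5.70 and 5.85 in the controls and 6.01, 6.14 and 5.89 in the mutants. The mutants lay above the controls, by 0.04 at the nearest arrays. The log2 fold change was 0.23 (95% interval 0.01 to 0.45, limma adjusted p = 0.174), with no call in any of the 17 alternative analyses. The second Cdk2 probe set was dim and stood at 0.02, so that the mean of the probe sets was at 0.12.

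Myc encodes c-Myc and had 1 probe set. It read 6.87, 7.09 and 7.18 in control replicates 1 to 3 and 6.62, 6.30 and 6.25 in mutant replicates 1 to 3. Mutant replicate 1 lay nearest to the controls, still 0.25 below the lowest of them. Myc transcript fell by 0.66 on the log2 scale, to 0.634 of the control level (standard error 0.13, limma adjusted p = 0.0175). The size stayed between -0.77 and -0.59 on leaving out each array, but the call did not always hold. When control replicate 2 or 3 was left out, the log2 fold change was -0.64 or -0.59 (adjusted p = 0.0536 and 0.0569 from limma). Without mutant replicate 2 or 3 it was -0.62 or -0.59 (adjusted p = 0.0705 and 0.0529 from limma). The call held without control replicate 1 or mutant replicate 1.

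Mycn encodes N-Myc, known from embryonic tissues and neural tumors. Its brightest probe set read 7.66, 7.27 and 7.25 in the controls and 6.56, 6.47 and 6.81 in the mutants. The highest mutant array stood 0.44 below the lowest control array. This probe set fell by 0.78 on the log2 scale, to 0.583 of the control level (standard error 0.14, limma adjusted p = 0.0138). The call was lost without mutant replicate 2 (log2 fold change -0.71, limma adjusted p = 0.0564) and held without any other single array.

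The other 2 Mycn probe sets did not follow it. The first read 4.34, 4.42 and 4.34 in the controls and 4.53, 4.16 and 4.35 in the mutants, a log2 fold change of -0.02. The second, below an intensity of 16, read 3.82, 3.18 and 3.46 in the controls and 3.65, 3.62 and 3.77 in the mutants, a log2 fold change of 0.19. With the mean of all 3 probe sets the log2 fold change of Mycn was -0.20 with no call (limma adjusted p = 0.288). The fall of Mycn rests on its brightest probe set.

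The Mycn promoter is shown because matches to the motif of E2F, the factor downstream of the G1 cyclins, lie close together in it. Its window lies at chr12:12941787-12942086 (GRCm38.p6, minus strand), printed 5′ to 3′ along the gene with matches to TTTGGCGC or TTTCGCGC or TTTCCCGC on either strand in capitals.
Mycn: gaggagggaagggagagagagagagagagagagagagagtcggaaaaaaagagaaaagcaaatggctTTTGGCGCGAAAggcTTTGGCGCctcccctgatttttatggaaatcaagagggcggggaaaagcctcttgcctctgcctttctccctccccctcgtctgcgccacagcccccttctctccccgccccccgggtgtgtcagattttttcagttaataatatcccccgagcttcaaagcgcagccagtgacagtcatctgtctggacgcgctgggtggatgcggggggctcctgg
The 3 matches begin at positions -183, -179 and -168 relative to the start, and the first overlaps the next. At least 1 match occurs in 1.845% of all promoter windows and at least 3 in 0.012%. Like that of Cdk4, this window was picked for its matches, so the shares do not measure how unusual it is. The window also holds 1 TCF/LEF match (CTTTGAA or CTTTGAT or CTTTGTA or CTTTGTT on either strand) at -14, as do 16.876% of all windows with 1 or more. In all, 6 of the 10 genes had an entry, and 1 window of Ccnd3 and that of Cdk4 also hold a TCF/LEF match, that of Cdk2 an E2F match and that of Cdk6 an E-box. The window of Ccne1 and the other window of Ccnd3 hold no match to any of these motifs. The genes without an entry are Ccnd1, Ccnd2, Ccne2 and Myc.

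Within arrays, Myc minus Mycn differed by 0.12 between mutant and control, with overlapping groups (exact two-sided permutation p = 0.6, adjusted p = 0.6). Its sign turned with 3 of the alternatives, so a larger change of either gene was not shown. Mycl, which encodes L-Myc, the other member of the family, went the other way. Mycl read 5.52 to 5.80 in the controls and 6.56, 6.90 and 6.93 in the mutants, a rise of 1.16 on the log2 scale (standard error 0.13, limma adjusted p = 0.00205). That call held on leaving out each array in turn, but not by the methods' t-test (adjusted p = 0.0606). With the mean of its probe sets Mycl was at 0.42 and still passed (limma adjusted p = 0.0131).

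**Figure D3:**
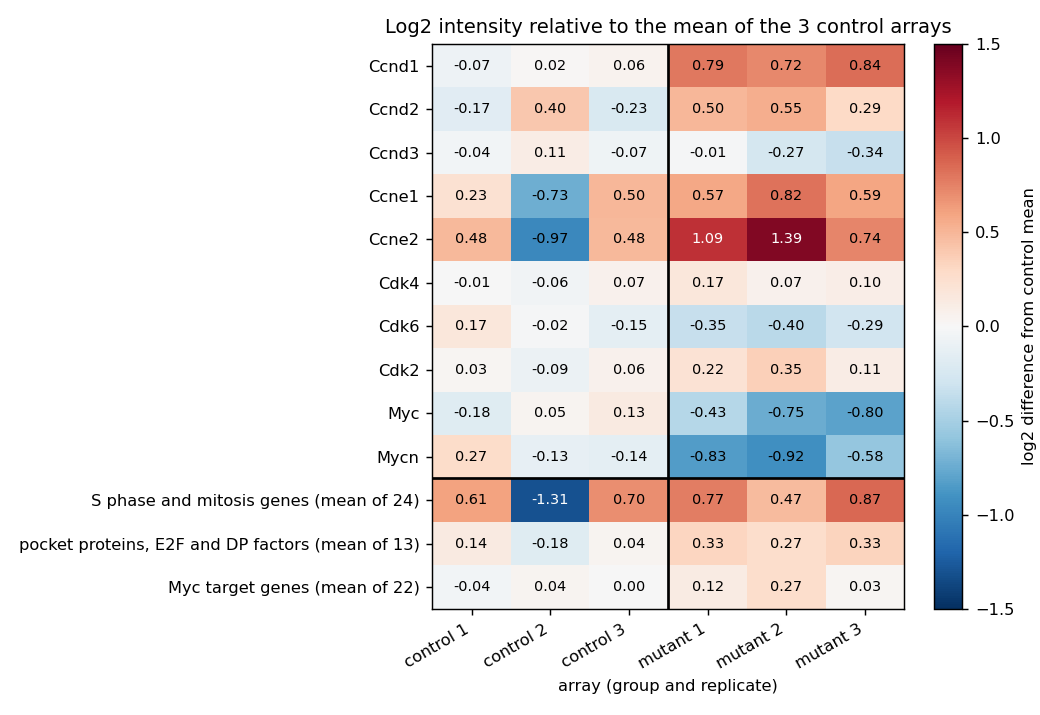
Log2 intensity of the 10 genes and the mean of 3 gene lists (rows) on each array (columns), relative to the mean of the 3 control arrays, with red for higher and blue for lower values. Ccnd1 separates the mutants on all arrays, while control replicate 2 is low for Ccne1 (-0.73), Ccne2 (-0.97) and the 24 S phase and mitosis genes (-1.31).

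Control replicate 2 stood apart from the other arrays in genes of the dividing cell. Over 24 measured genes of S phase and mitosis, the mean log2 intensity was 6.69, 4.78 and 6.78 in control replicates 1 to 3 and 6.85, 6.55 and 6.95 in mutant replicates 1 to 3. This array was the lowest of the 6 for 23 of these 24 genes. It was also the lowest for 4 of the 10 genes described here (Ccne1, Ccne2, Cdk4 and Cdk2), against 3658 of all 18193 genes. All 24 genes had a log2 fold change above 0, against 8589 of all 18193 genes. Their median was 0.73, but without control replicate 2 the median was -0.02. Its part in the values of Ccne1 and Ccne2 was not tested beyond the values without it given above. Ccnd1 had a log2 fold change of 0.79 without it.

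Of the S phase and mitosis genes, 3 were called higher, none lower and 21 did not pass. For this list and those below, the shares over all genes were 5.61% higher and 6.36% lower. The called genes were Mcm3, Mcm4 and Mcm2, subunits of the helicase that opens DNA for replication. Mcm4 read 7.32, 6.98 and 7.38 in the controls and 7.86, 7.97 and 7.69 in the mutants, a log2 fold change of 0.61 (limma adjusted p = 0.0229). Mcm3 and Mcm2 had log2 fold changes of 0.94 and 0.57. With the mean of its probe sets Mcm3 was at 0.61 and did not pass (limma adjusted p = 0.0572). Without control replicate 2, the log2 fold changes of Mcm3, Mcm4 and Mcm2 were 0.69, 0.49 and 0.44, and that of Mcm2 no longer passed (limma adjusted p = 0.0655). Mcm2 also lost its call without control replicate 1 or any of the mutant arrays, and Mcm3 and Mcm4 on leaving out control replicate 1 or either of mutant replicates 1 and 2.

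Of 7 inhibitors of the kinases, 1 was called higher, 1 lower and 5 not. Cdkn1a, which encodes p21, read 4.44, 4.25 and 4.73 in the controls and 7.20, 7.44 and 7.59 in the mutants. This rise of 2.94 on the log2 scale was the largest among the named genes of the cell cycle lists, and its call held without any single array (adjusted p at most 0.00139 from limma). Cdkn1b, which encodes p27, read 8.15, 8.41 and 7.96 in the controls and 7.57, 7.15 and 7.71 in the mutants. It fell by 0.70 on the log2 scale (limma adjusted p = 0.0384), and no call remained on leaving out control replicate 1 or 2 or mutant replicate 1 or 2 (log2 fold changes of -0.71, -0.58, -0.75 and -0.53). With the mean of its probe sets Cdkn1b was at -0.44 and did not pass (limma adjusted p = 0.0941), nor did it with the replicate number as a block (limma adjusted p = 0.0782).

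Of 16 activators and turnover factors of G1 kinases, 2 were called higher and none lower, and the median log2 fold change was 0.02. Skp2, the ubiquitin ligase subunit that targets p27, read 4.87, 4.48 and 5.03 in the controls and 5.42, 5.61 and 5.47 in the mutants, a log2 fold change of 0.71 (limma adjusted p = 0.0209). Cdc25a, a phosphatase that activates Cdk2, read 6.33, 6.37 and 6.39 in the controls and 6.82, 7.05 and 6.75 in the mutants, a log2 fold change of 0.51 (limma adjusted p = 0.0168). Both lost the call with the mean of their probe sets (log2 fold changes of 0.38 and 0.26) and without control replicate 1, and Skp2 also without mutant replicate 2 or 3. The adjusted p from limma without control replicate 1 was 0.0648 for Skp2 and 0.0741 for Cdc25a.

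None of 13 pocket protein, E2F and DP genes was called in either direction by limma. Of them 10 had a log2 fold change above 0 (median 0.21), against 8589 of all 18193 genes. The 2 with the smallest p were Rb1, the retinoblastoma gene, and E2f8, an atypical E2F that represses. Rb1 read 6.19, 6.26 and 5.93 in the controls and 6.40, 6.51 and 6.59 in the mutants (log2 fold change 0.37, limma adjusted p = 0.0694). E2f8 read 4.31, 2.48 and 4.39 in the controls and 5.17, 5.13 and 5.73 in the mutants (log2 fold change 1.61, limma adjusted p = 0.0723). The lowest value of E2f8, like those of Ccne1 and Ccne2, was on control replicate 2. Without that array E2f8 was at 0.99 and passed (limma adjusted p = 0.0283), and it also passed with the replicate number as a block (limma adjusted p = 0.0333). With the mean of the probe sets E2f8 was at 0.77 and Rb1 at 0.24, with no call. The unadjusted p from limma was 0.0098 for Rb1 and 0.0105 for E2f8.

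**Figure D4:**
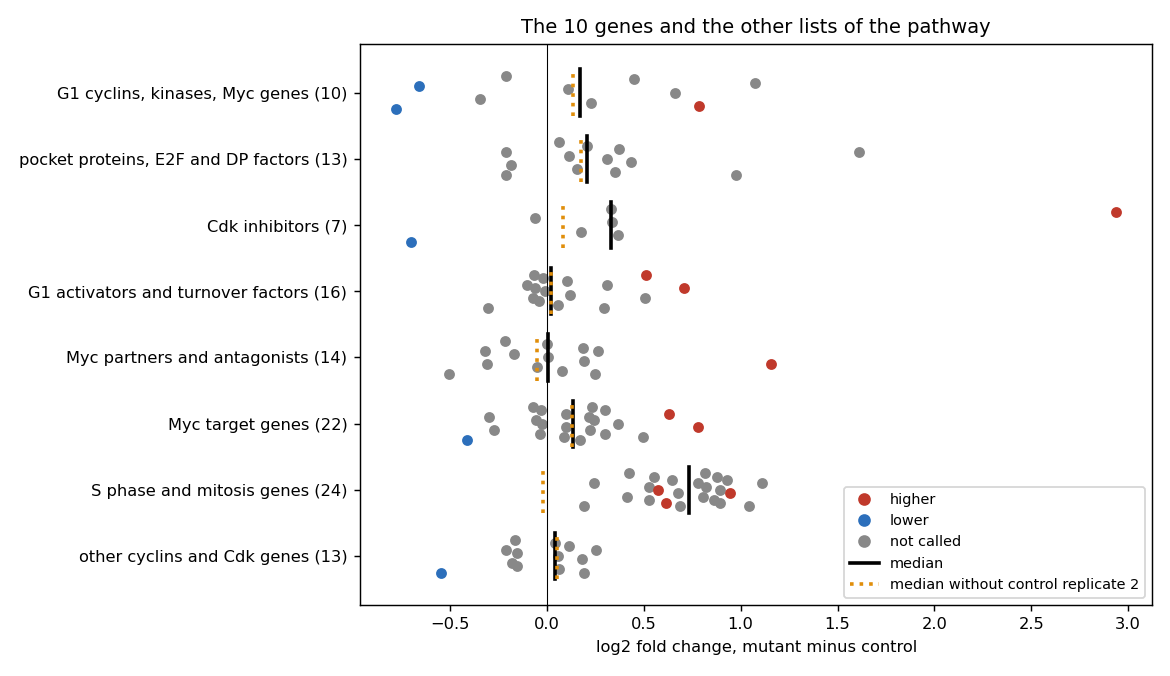
Log2 fold change, mutant minus control (x axis), of the 10 genes and of the measured genes of 7 other lists (rows, number of genes in brackets), coloured by the limma call, with the median of each list as a black line and without control replicate 2 as a dotted line. The median of the S phase and mitosis genes moves from 0.73 to -0.02 without that array, and that of the Cdk inhibitors from 0.33 to 0.08.

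Genes that work with Myc, or that Myc is known to induce, were described by counts alone, with no test of the lists. Of 14 Myc partners and antagonists, Mycl was called higher and none lower, with 8 above 0 and a median log2 fold change of 0.01. Of 22 measured Myc targets, 2 were called higher, 1 lower and 19 not, with 14 above 0 and a median of 0.14. Of all 18193 genes, 5.61% were called higher, 6.36% lower, and 8589 were above 0. Odc1, the first enzyme of polyamine synthesis, read 8.32, 8.40 and 8.29 in the controls and 9.02, 9.37 and 8.97 in the mutants. It rose by 0.78 on the log2 scale (limma adjusted p = 0.00708), and the call held without any single array.

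Nolc1, a nucleolar protein, was called higher at 0.63 (limma adjusted p = 0.0369), but lost the call without any array but mutant replicate 1. Npm1, the nucleolar protein nucleophosmin, read 11.20, 11.24 and 11.03 in the controls and 10.86, 10.67 and 10.69 in the mutants. It fell by 0.41 on the log2 scale (limma adjusted p = 0.0323) and passed without control replicate 3 or mutant replicate 1 but not without any other array. Of 13 other cyclin and Cdk genes, none was called higher and 1 lower. This was Cdk14, at -0.54 (limma adjusted p = 0.0157), which did not pass on leaving out control replicate 1 or 2 or mutant replicate 2 and stood at -0.09 with the mean of its probe sets.

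**Figure D5:**
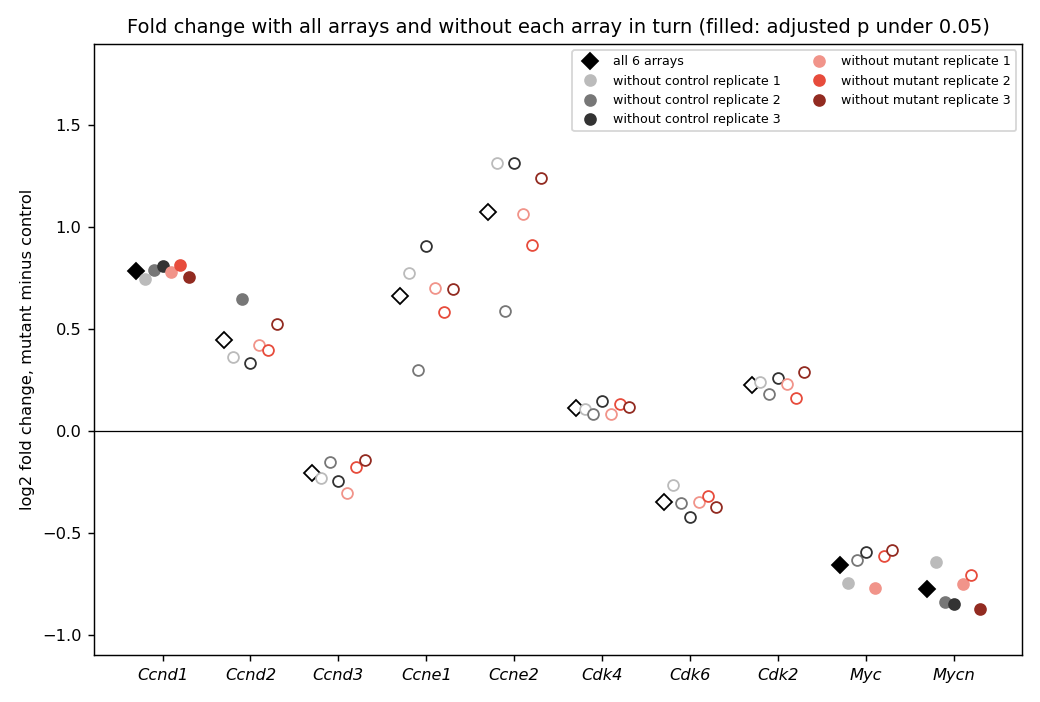
Log2 fold change, mutant minus control (y axis), of the 10 genes (x axis) with all 6 arrays (diamonds) and without each array in turn (circles), filled where the adjusted p from limma was under 0.05. Ccnd1 is filled in all 6 settings without an array, Mycn in 5 and Myc in 2, and Ccnd2 is filled without control replicate 2 alone.

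Genes of β-catenin feedback were set beside the group labels, from a list chosen with earlier results of these data known. Of 7 such genes 6 were measured and all 6 were called higher, with a median log2 fold change of 2.83. Their mean log2 intensity was 4.61 to 5.03 on the controls and 8.05 to 8.55 on the mutants. Notum, an enzyme that inactivates Wnt ligands, rose by 5.88 on the log2 scale. Against these the change of Ccnd1 was small, and Myc fell. Pgr, the gene that drives Cre here and is itself induced by estrogen, fell by 0.97 on the log2 scale (standard error 0.11, limma adjusted p = 0.0027). With all arrays it was the only 1 of 7 measured estrogen-responsive genes that was called, and their median log2 fold change was -0.25. Without control replicate 2, 2 of the 7 were called lower and 0 higher, with a median of -0.78. Their mean log2 intensity was 8.65, 7.72 and 8.57 in control replicates 1 to 3 and 7.68, 7.80 and 8.60 in mutant replicates 1 to 3. Whether the Pgr probes also read the allele that encodes Cre was not stated. A loss of Pgr signal from that allele and a lower expression of Pgr cannot be told apart here.

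The tissue was checked against markers of the cells that a uterus holds. On every array the mean log2 intensity was at least 8.58 over 7 epithelium markers, 10.04 over 7 stroma markers and 9.55 over 7 myometrium markers. None of the stroma and myometrium markers was called in either direction by limma, and of the epithelium markers 1 was called higher and 1 lower. The log2 fold change was below 0 for 6 of the 7 epithelium markers, with a median of -0.31 (-0.38 without control replicate 2). Of all 18193 genes, 8589 were above 0. The mean over the epithelium markers includes Foxa2, the 1 called higher, at 1.54. Their part in the values of the 10 genes was not tested. The mean ranges were 8.77 to 8.94 in controls and 8.58 to 9.03 in mutants for epithelium, 10.20 to 10.26 and 10.04 to 10.18 for stroma, and 9.69 to 10.01 and 9.55 to 9.93 for myometrium.

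Markers of other cells moved with the groups in part. Of 6 macrophage markers, 1 was called higher, and the means were 6.33 to 6.38 in controls and 6.58 to 6.72 in mutants. Of 4 measured adipocyte markers, 1 was called higher, and the means were 4.40 to 6.16 in controls and 6.75 to 7.22 in mutants. Of 5 endothelium markers 1 was called lower (6.46 to 6.51 in controls and 6.13 to 6.45 in mutants). None of 5 measured lymphocyte and NK cell markers (4.09 to 4.39 and 3.84 to 4.18) and none of 4 mesothelium markers (4.77 to 5.09 and 4.70 to 4.98) was called. The part of these markers in the values of the 10 genes was not tested either.

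For each gene that was called, the 3 genes most like it were sought by Pearson's r over the 6 arrays, among 5996 genes with a mean log2 intensity of at least 6. For Ccnd1 they were Ptprd (0.996), Gstm2 (0.994) and Lpar1 (0.993), with log2 fold changes of 0.78, 0.98 and 0.94 (Ptprd at 0.31 with the mean of its probe sets). For Myc they were Dip2c (0.996), Fam32a (0.994) and Oat (0.992), with log2 fold changes of -0.22, -0.13 and -0.33, none of them called. For Mycn they were Gpx1 (0.997), Grn (0.996) and Tmem198b (0.995), with log2 fold changes of -0.18, -0.19 and -0.56. With 6 arrays in 2 groups, a high r mostly repeats the difference between the groups, and these values are a description.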

How the data were processed

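Total RNA of uteri from 3 control and 3 mutant mice or pools was hybridized to Affymetrix arrays, and each array was assigned by its sample label. The values the authors deposited are linear intensities, 1 for each probe set on each array. RMA, which corrects background, normalizes by quantiles and summarizes the probes of a set, is named in the submitters' processing notes without a version. Medians of 7.23 to 7.42 on the 6 arrays show that they had been scaled to each other. No 2 arrays shared more than 2.11% of values. No filter, detection call or batch is stated.

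Log2 was taken of values floored at 1 (0 values changed). Of 45037 probe sets, 34945 had 1 symbol in the platform annotation, 932 several and 9160 none. Each of 18193 genes was read by its brightest probe set. The comparison used R 4.3.3 and limma 3.58.1 (functions lmFit and eBayes, two-sided, Benjamini-Hochberg over all genes, threshold 0.05). Intervals are 95% intervals of that fit, and errors beside fold changes are its standard errors. Pairs of genes were compared by exact permutation over arrays. The number of arrays limits the precision.

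The members, lists and tests were chosen with earlier results of these data known. Named are all members, the called genes of each list (at most 4, by size of change) or, in a list without calls, the 2 of smallest p, and 3 genes alike to each called member. From the marker lists and the β-catenin feedback genes, counts and at most 1 gene are printed. Alternatives were other scalings, gene summaries, filters, a floor of 16, variance models, a replicate block, the methods' t-test and leaving out each array. Another was the paper's fold threshold with an unadjusted p under 0.05 from limma. Lists without control replicate 2 were added after seeing the data. Promoter sequences are from RefSeq (GRCm38.p6), matched by symbol. Data were simulated from these arrays for 3 mutant against 3 control over 18193 genes, with log2 changes of 0.5, 1 and 2 in 50, 100 and 50 genes. Of these changes 40%, 84% and 98% were recovered, and 6 of 159 calls were false. Fewer genes were changed there than were called in the real data, and noise was drawn separately for each gene. These shares therefore need not hold for the real arrays. ChIP-seq, RT-qPCR, staining and human samples were not analysed here.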

Additional observations from a re-analysis of the deposited data

How the results depend on the processing

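Each of the 10 genes was recomputed under 17 alternatives. Of these 170 values, 156 kept their direction and side of the threshold, 10 lost a call (6 for Myc, 4 for Mycn), 4 gained 1 and 0 turned sign. Beside the settings named with each gene, Myc and Mycn did not pass with a floor of 16 (limma adjusted p = 0.1 and 0.095) or by the methods' t-test (adjusted p = 0.117 and 0.113), at unchanged log2 fold changes. Among the genes, 2 were called higher without control replicate 2 and at the paper's fold threshold. Fewer than 2 were lower with the mean of the probe sets (1), a floor of 16 (0) and the methods' t-test (0). Leaving out an array gave 1 to 2 higher and 0 to 2 lower. The median of all genes moved by less than 0.1 under every scaling.

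Over all genes, 1574 were higher with all probe sets adjusted together, where probe sets and not genes are counted. With a floor of 16, 283 were higher and 243 lower, and with the methods' t-test 105 and 39. At the paper's fold threshold 757 were lower. Leaving out an array gave 480 to 971 higher and 372 to 1139 lower, the fewest without control replicate 1. Without mutant replicate 2 there were 580 and 493, and without control replicate 2 and mutant replicate 3 there were 682 and 760 lower. Myc minus Mycn turned to -0.45 with the mean of the probe sets, -0.10 without control replicate 1 and -0.02 without mutant replicate 1, in a range of -0.10 to 0.29 on leaving out each array. The cause of these shifts was not tested.

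Samples with the same replicate number did not deviate together in every pair (correlations of 0.01, 0.21 and 0.16 over genes), so the numbers were not taken to pair them. With a replicate block 966 genes were higher and 1085 lower, and the members stayed at 1 and 2 with no call changed. Among the other named genes the block ended the call of Cdkn1b and gave 1 to E2f8. A floor of 16 and the methods' t-test also ended every call among the named genes of the other G1, Myc and S phase lists, except that of Cdkn1a under both and that of Mycl under the floor. Dim probe sets limit what Ccne1 and Ccne2 can show.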
